A study of Mus musculus with 6 samples.

Results

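Glutathione transferases join the tripeptide glutathione to reactive compounds, and glutamate-cysteine ligase makes the first bond of glutathione. The 9 genes described here cover both activities. They are the cytosolic transferases Gsta2, Gsta3, Gsta4, Gstm1, Gstm2 and Gstp1, the membrane-bound transferase Mgst1, and the catalytic (Gclc) and modifier (Gclm) subunits of glutamate-cysteine ligase. They were chosen from the intensities of the same 6 arrays, so their values are given as a description and no test is attached to them. In the platform annotation 17 probe sets named the 9 genes, 1 of them together with other genes. Of all 18194 genes with a probe set of their own, 11153 had a mean log2 intensity of at least 6 (intensity 64), the floor used for counts, and 8 of the 9 did too. Gsta3 did not.

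The arrays measured RNA of ovarian granulosa cells, the follicle cells that support the oocyte. They came from immature mice, 23 days of age, primed 48 h earlier with 5 IU of equine chorionic gonadotropin (eCG, which acts like follicle-stimulating hormone). Each of the 6 groups was a single array. The wild type groups had received no human chorionic gonadotropin (hCG, which acts like the ovulatory surge of luteinizing hormone) or 5 IU of it 2.5 h or 4 h before collection. The knockout groups were taken at the same 3 points and combined an ERK1 knockout with ERK2 fl/fl;Cyp19CRE. The Cyp19 (aromatase) promoter, active in granulosa cells of large follicles, drives the Cre that deletes the floxed ERK2. The labels do not say how many mice gave each array, or whether the wild type mice carried floxed alleles. With 1 array a group there is no replicate error and no p-value. A difference is counted below when it is at least 2-fold and the brighter array reaches the floor.

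Glutathione is made in the cytosol by glutamate-cysteine ligase and then glutathione synthetase, and cysteine supply often limits it. Many of its genes, and several transferase genes, are known targets of the transcription factor NRF2, which acts through antioxidant response elements. In steroid-making cells of the ovary, alpha-class transferases are known as abundant enzymes that also bind steroids and reduce lipid peroxides.

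The share of probe sets at or above the floor ran from 47.2% to 47.6% over the 6 arrays, and RNA integrity was read from the 3' to 5' intensity ratio of the Gapdh control, with values of 4.79 and 5.21 without hCG but 3.56 to 4.24 in the 4 hCG groups. Its part in the differences after hCG was not tested. The genotype labels were not checked here. All of 8 granulosa markers with a probe set exceeded the floor on at least 1 array, among them Fshr, the receptor of follicle-stimulating hormone, and Foxl2, a granulosa transcription factor. The summed intensity of the granulosa list was 99118, 75535 and 66422 in wild type at 0 h, 2.5 h and 4 h, against 94949, 116751 and 114879 in knockout. Oocyte markers (12 of 13 over the floor on at least 1 array) summed to 16764, 10032 and 10845 in wild type, against 31407, 13121 and 11371 in knockout. Theca markers (4 of 4) were at 6609, 5014 and 4314 against 6055, 16352 and 16523, with Cyp17a1, a steroid hydroxylase of theca cells, at 14251 and 13997 on the last 2 arrays and the other 3 markers below wild type there. Stromal markers (5 of 5) summed to 6870, 5215 and 4359 in wild type, against 5772, 4764 and 5227 in knockout. Endothelial markers (5 of 8, with Pecam1, Tie1 and Emcn under the floor) gave 693, 1181 and 987, and 661, 729 and 705. Macrophage and leukocyte markers (7 of 9, with Ptprc and Itgam under it) summed to 1340, 1337 and 1309 in wild type, against 1403, 1672 and 1892 in knockout. Surface epithelium markers (7 of 7) summed to 2506, 2453 and 2865 in wild type, against 2641, 3308 and 3584 in knockout. Red blood cell markers (1 of 2) gave 345, 535 and 557 in wild type, against 381, 211 and 245 in knockout. In such bulk RNA, fewer cells of a type and less RNA per cell cannot be told apart.

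Gsta2, an alpha-class transferase, showed the widest spread of the 9 genes. Its intensity in wild type was 127 before hCG, 1963 at 2.5 h and 3908 at 4 h. In knockout it was 118, 135 and 96. Before hCG the genotypes differed by 1.08-fold. After it, both wild type arrays lay above all 4 other arrays, while no knockout array departed from its own 0 h value by more than 1.23-fold. Relative to 0 h, wild type Gsta2 was 15.5-fold higher at 2.5 h and 30.8-fold higher at 4 h. Against wild type, the knockout value was 14.5-fold lower at 2.5 h and 40.7-fold lower at 4 h. The low values, 96 to 135, are not far above the floor, so the size of these folds depends in part on the background. With 16 added before the log, the knockout minus wild type difference at 4 h went from -5.35 to -5.13 (log2).

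A second probe set names Gsta2 together with its close relatives Gsta1 and Gm3776. It read 67, 1281 and 2317 in wild type, against 66, 83 and 60 in knockout. Its pattern was the same as that of the probe set naming Gsta2 alone, with 34.6-fold between 4 h and 0 h in wild type and 38.6-fold between the genotypes at 4 h. Its low values sit at the floor, so these ratios depend on the background, and the near-identical copies leave the share of each gene in the signal uncertain. The hCG response of Gsta2 differed between genotypes (knockout minus wild type) by -3.76 on the log2 scale at 2.5 h and -5.24 at 4 h by the first probe set, and by -3.93 and -5.25 by the second.

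**Figure D1:**
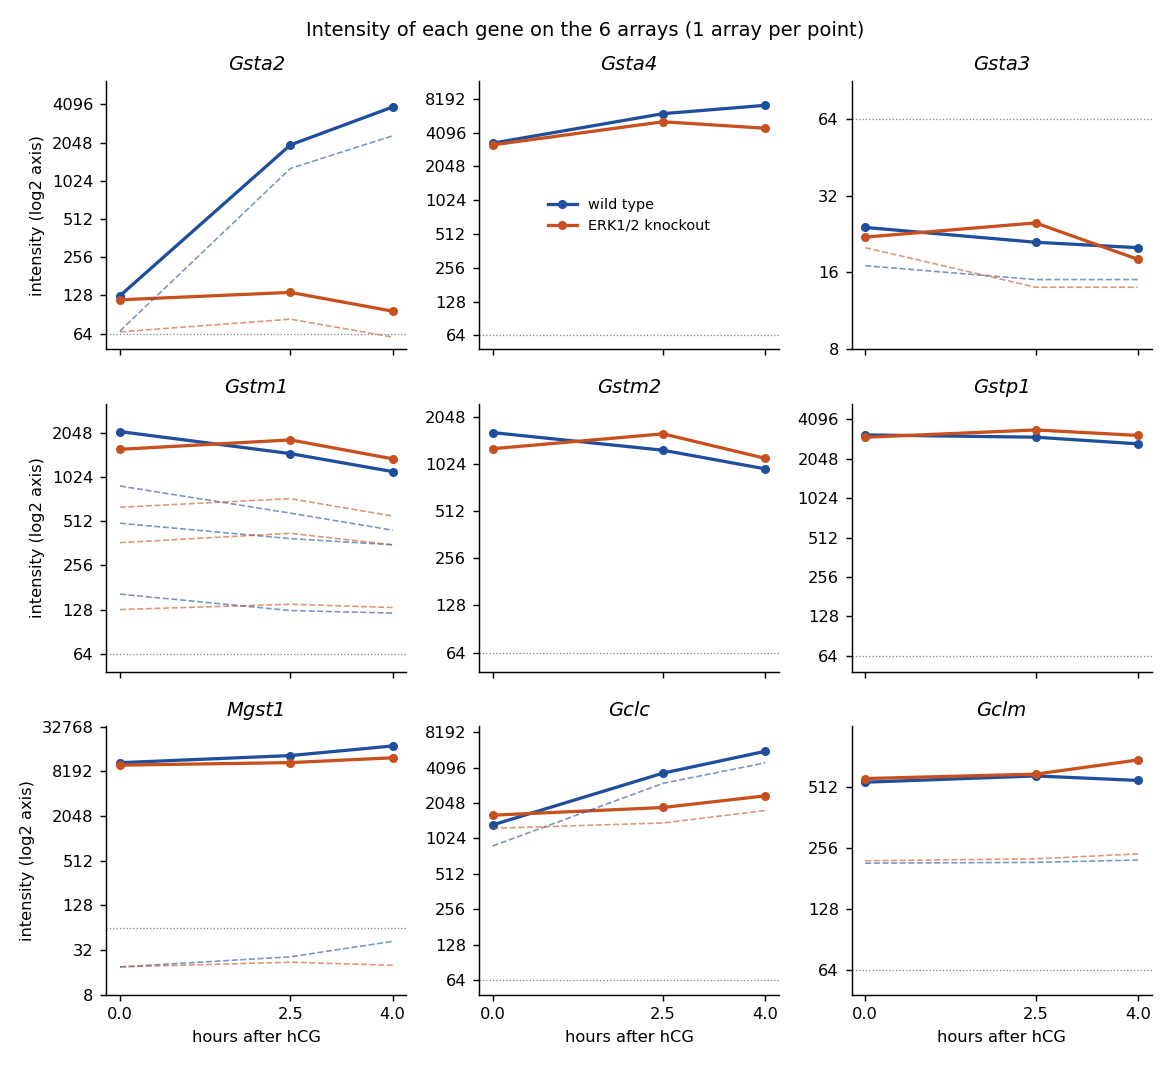
Intensity on a log2 axis against hours after hCG for the 9 genes, wild type in blue and ERK1/2 knockout in orange, 1 array per point. Solid lines are the probe set that stands for the gene, dashed lines its other probe sets, and the dotted line is the floor of 64. Gsta2 climbs from 127 to 3908 in wild type while knockout stays between 96 and 135, Gclc runs from 1334 to 5635 against 1613 to 2356, and Gclm spans 1.29-fold in all.

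Promoter sequence of GRCm38.p6, as RefSeq gives it, was used for 7 of the 9 genes, all but Gsta4 and Gclc. It is shown for Gsta2, which differed most, for Gsta3, its relative under the floor on every array, and for Gclm, the ligase subunit whose level barely moved. The 250 bases before the start of each gene run 5′ to 3′ on the gene's own strand: Gsta2 at chr9:78347146-78347395 (minus strand), Gsta3 at chr1:21240335-21240584 (plus) and Gclm at chr3:122245307-122245556 (plus). Capitals mark the core of the antioxidant response element, TGACNNNGC on either strand.
Gsta2: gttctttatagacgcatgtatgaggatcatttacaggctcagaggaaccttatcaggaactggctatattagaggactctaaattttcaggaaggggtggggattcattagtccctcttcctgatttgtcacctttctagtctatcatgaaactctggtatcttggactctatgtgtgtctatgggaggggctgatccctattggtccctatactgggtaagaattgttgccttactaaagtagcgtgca
Gsta3: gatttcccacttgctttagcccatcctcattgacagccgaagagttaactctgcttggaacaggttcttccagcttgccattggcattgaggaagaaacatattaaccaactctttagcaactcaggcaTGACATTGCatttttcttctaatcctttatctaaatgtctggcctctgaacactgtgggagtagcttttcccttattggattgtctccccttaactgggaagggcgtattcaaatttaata
Gclm: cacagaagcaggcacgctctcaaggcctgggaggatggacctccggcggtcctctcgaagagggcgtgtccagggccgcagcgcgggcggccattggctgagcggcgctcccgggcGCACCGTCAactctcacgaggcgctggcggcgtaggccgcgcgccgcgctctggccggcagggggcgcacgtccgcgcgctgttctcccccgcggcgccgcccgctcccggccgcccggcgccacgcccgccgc

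The 7 genes had 9 windows, because Gstm1 and Mgst1 each had a second start. The element core was present in the windows of Gsta3 (at -121 from the start), Gclm (at -134, other strand) and promoter 1 of Mgst1 (at -56, other strand), but not promoter 2 of Mgst1. It was not in the window of Gsta2, and 10.2% of all 32851 promoter windows of this length held it. A cAMP response element (TGACGTCA, both strands) stands in 1.55% of all windows and a steroidogenic factor site (TCAAGGTCA, both strands) in 0.387%, and neither was found in a window of these 7 genes. An AP-1 site (TGANTCA, both strands), a search added after the data had been seen, was found in the window of Gstp1 (at -74) and in 6.75% of all windows. A match is a run of letters and not a binding site, and sequence farther upstream was not searched.

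Gsta4, an alpha-class transferase that prefers the lipid peroxidation product hydroxynonenal, had higher values after hCG in both genotypes. Wild type gave intensities of 3298, 6045 and 7170 at 0 h, 2.5 h and 4 h, and knockout 3183, 5118 and 4478. All 4 arrays after hCG lay above both arrays without it. Only the wild type array at 4 h passed 2-fold (2.17-fold), with 1.83-fold at 2.5 h. With cyclic loess, or relative to the median of all genes, the 2.5 h value also passed (log2 1.08 and 1.09). In knockout the gene was 1.61-fold and 1.41-fold above 0 h, and at 4 h it was 1.60-fold below wild type, short of the rule.

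Gsta3, the third alpha-class gene, was dim throughout. Its brighter probe set ranged from 18 to 25 and the other from 14 to 20 over the 6 arrays, all under the floor. No fold is given for it, because background cannot be told from signal there.

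The mu-class genes Gstm1 and Gstm2 had lower values after hCG in wild type, by less than 2-fold. Gstm1 read 2083, 1475 and 1112 in wild type, against 1577, 1828 and 1359 in knockout. Its wild type value at 4 h was the lowest of the 6 and 1.87-fold below 0 h, short of 2-fold. A second Gstm1 probe set was 1.998-fold lower there, going from 887 to 444 and also just short, and the other pair spanned 1.35-fold and 1.40-fold in all. Gstm2, the neighbouring gene, read 1630, 1257 and 955 in wild type, against 1285, 1600 and 1115 in knockout, so that wild type at 4 h was 1.71-fold below 0 h. By the first probe set given for each gene, the wild type array was the brighter without hCG. The knockout array was then the brighter at 2.5 h and 4 h. Each of these differences was less than 1.5-fold. The Gstm1 probe set that spanned 1.40-fold read 353 in both genotypes at 4 h. Gstp1, the pi-class transferase, had the smallest span of the 6 transferases among the 9 genes that exceeded the floor, between 2662 and 3399, a 1.28-fold span.

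Mgst1, a transferase of the endoplasmic reticulum and outer mitochondrial membrane, read 10752, 13419 and 18081 in wild type, against 9968, 10785 and 12524 in knockout. The order of times was the same in both genotypes, and wild type at 4 h was 1.68-fold above 0 h against 1.26-fold in knockout. A second Mgst1 probe set stayed between 19 and 42, under the floor on all arrays.

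Among the genes of synthesis, the catalytic and the modifier subunit of the ligase parted. Gclc, the catalytic subunit, read 1334, 3677 and 5635 in wild type, against 1613, 1876 and 2356 in knockout. Knockout was the brighter before hCG (1.21-fold), and the 2 wild type arrays after hCG lay above every other array. Relative to 0 h, Gclc was 2.76-fold higher at 2.5 h and 4.22-fold higher at 4 h in wild type, and 1.16-fold and 1.46-fold higher in knockout.

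Between genotypes, Gclc was 1.96-fold lower in knockout at 2.5 h and 2.39-fold lower at 4 h. The other Gclc probe set read 883, 3010 and 4494 in wild type, against 1249, 1386 and 1768 in knockout, and put the knockout 2.17-fold and 2.54-fold lower. At 2.5 h the gene thus lay on either side of the 2-fold line depending on the probe set. The knockout minus wild type difference in hCG response was -1.24 and -1.53 (log2) by the first probe set and -1.62 and -1.85 by the second.

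Gclm, the modifier subunit, which lowers the ligase's feedback inhibition by glutathione, read 541, 581 and 552 in wild type, against 564, 593 and 697 in knockout. The whole span was 1.29-fold, and 1.11-fold by its second probe set, which lay between 215 and 239. The highest of the 6 values was the knockout array at 4 h. Gclm thus spanned 1.29-fold over the arrays on which Gclc spanned 4.22-fold.

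**Figure D2:**
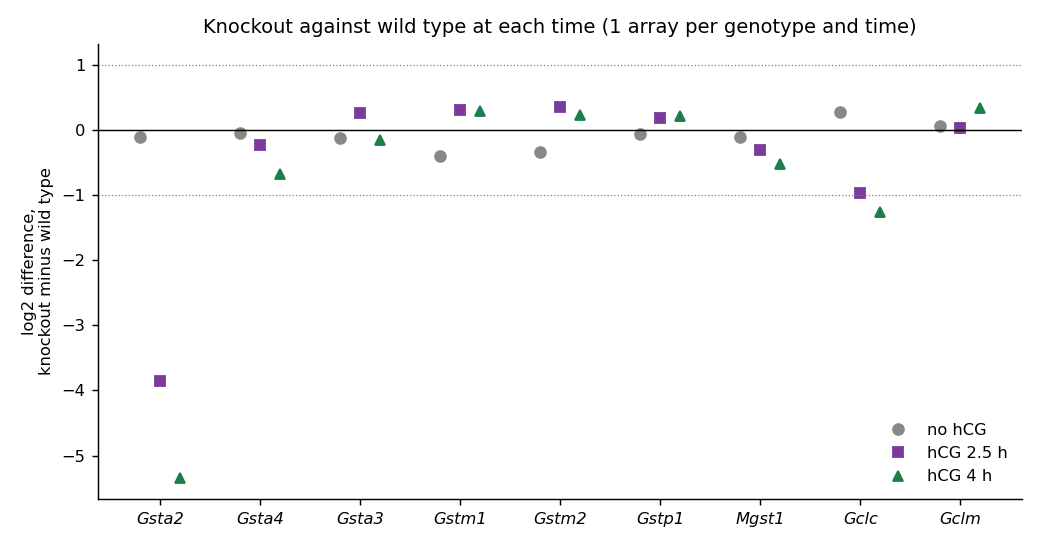
Log2 difference of knockout minus wild type for the 9 genes without hCG, at 2.5 h and at 4 h, each from a single pair of arrays. Dotted lines mark 2-fold. Without hCG all points lie inside the lines, Gsta2 reaches -3.86 and -5.35 after hCG, and Gclc -0.97 and -1.26. Gsta3 is under the floor.

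Counted by the rule, none of the 8 genes over the floor differed 2-fold between genotypes before hCG, where 0.681% of 11153 genes were higher and 0.852% lower in knockout. At 2.5 h, 1 of 8 was lower in knockout (Gsta2) and none higher, with 2.75% and 1.44% of all genes. At 4 h, 2 of 8 were lower (Gsta2 and Gclc) and none higher, with 3.51% and 5.0% of all genes. In wild type, 2 of 8 were higher at 2.5 h and none lower, with 3.3% and 1.0% of all genes, and 3 of 8 were higher at 4 h (Gsta2, Gsta4, Gclc), with 4.91% of all genes higher and 9.11% lower. In knockout, 0 of 8 passed at 2.5 h, where 3.35% of all genes were higher and 3.57% lower, and 0 of 8 at 4 h, with 3.87% and 4.56%. Because the genes were chosen on these arrays, nothing is read from these shares.

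At smaller sizes, the medians of the 8 genes after hCG were 0.21 and 0.39 (log2) in wild type, against 0.20 and 0.18 in knockout. The medians of all genes over the floor were -0.22 and -0.21 in wild type, but -0.02 and 0.02 in knockout. Values after hCG in wild type are therefore given on other scalings where their direction turned. Relative to the median of all genes, or with cyclic loess in place of the deposited scaling, Gstp1 in wild type at 2.5 h changed from -0.06 to 0.16 or 0.15. With cyclic loess Gstp1 also turned between genotypes, from 0.18 to -0.02 at 2.5 h and from 0.21 to -0.01 at 4 h, and in knockout at 4 h from 0.05 to -0.04. Relative to that median, Gclm between genotypes at 2.5 h changed from 0.03 to -0.11, and with cyclic loess to -0.12. Gsta2, Gsta4, Gclc, Mgst1, Gstm1 and Gstm2 kept their direction in all 7 comparisons under both scalings.

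Other glutathione transferases were mostly lower at 4 h than at 0 h in wild type. Of 17 listed, 15 had a probe set of their own and 12 exceeded the floor. At 4 h in wild type all of these 12 lay below 0 h, 4 of them by 2-fold (median -0.65, log2, against -0.21 for all genes, of which 9.11% were 2-fold lower). Gstm3, among the 12, went only from 72 to 70, just above the floor. With cyclic loess 11 of 12 lay below and relative to the median of all genes 10 of 12 did, 2 by 2-fold under each. In knockout at 4 h 10 of 12 were below 0 h, 1 by 2-fold (Mgst2). Their median was -0.30 against 0.02 for all genes, of which 4.56% were 2-fold lower. At 2.5 h 0 of 12 passed 2-fold in either genotype on the deposited scale. Of all genes at 2.5 h, 3.3% were higher and 1.0% lower in wild type, and 3.35% and 3.57% in knockout. The 4 that were 2-fold lower at 4 h in wild type were the mu-class genes Gstm7 (355 to 139), Gstm4 (150 to 72) and Gstm6 (143 to 69), and the theta-class gene Gstt2 (162 to 69). On the knockout arrays these genes went from 230 to 181, 149 to 129, 88 to 112 and 149 to 97. The wild type 4 h values of Gstm4, Gstm6 and Gstt2 were just above the floor, so their folds depend on the background.

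The mu-class genes form an unbroken run of 7 protein-coding genes on chromosome 3 in RefSeq, in the order Gstm5, Gstm7, Gstm6, Gstm3, Gstm2, Gstm1, Gstm4. All 7 were over the floor, and in wild type at 4 h all 7 were below their 0 h value, by -0.04 (Gstm3) to -1.35 (Gstm7) on the log2 scale, with a median of -0.91. Gstm3 lay between 67 and 73 on all arrays, just above the floor, so its direction depends on rounding and background. With cyclic loess 7 of 7 were below (median -0.72), and relative to the median of all genes 6 of 7, with Gstm3 above. In knockout at 2.5 h all 7 were above 0 h (median 0.21), and this held with both other scalings. For Gstm3 (67 to 70) and Gstm4 (149 to 151) the step was very small. At 4 h in knockout 5 of 7 were below 0 h (median -0.20). Grouping these 7 genes was decided after their values were seen. Mu-class transcripts are close in sequence, so probes of one may read another. The granulosa, stromal and theca marker sums given above were also lower at each later time in wild type, and their part in the mu-class values was not tested.

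Mgst2, a membrane-bound relative of Mgst1, differed between genotypes already before hCG. It read 349, 615 and 254 in wild type, against 135, 124 and 63 in knockout, so that knockout was 2.59-fold, 4.96-fold and 4.03-fold lower at the 3 points, the last against a value just under the floor that depends on the background. Mgst2 was the only one of the 12 other transferases over the floor that passed 2-fold between genotypes at any of the 3 points. Of all genes, 0.852%, 2.75% and 3.51% were 2-fold lower in knockout at these points, and 0.681%, 1.44% and 5.0% higher.

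Genes of glutathione supply, salvage and recycling were split. Of 21 listed, 19 had a probe set of their own and 16 exceeded the floor. In wild type, 3 were 2-fold higher at 2.5 h and 4 at 4 h, with 0 and 1 lower (medians 0.26 and 0.38), where 3.3% and 4.91% of all genes were higher and 1.0% and 9.11% lower. In knockout, 2 and 3 were higher and 0 and 1 lower (medians 0.27 and 0.13). Of all genes in knockout, 3.35% and 3.87% were higher and 3.57% and 4.56% lower. The gene lower at 4 h in both was Cbs, cystathionine beta-synthase, named after its values were seen, which went from 661 to 318 in wild type and from 826 to 391 in knockout. With cyclic loess, or relative to the median of all genes, the wild type counts at 4 h were 5 higher and 0 lower. Between genotypes 0 of 16 differed before hCG, and at 2.5 h 1 was higher and 2 were lower in knockout. At 4 h 2 were higher and 3 lower, and 1 and 4 with cyclic loess or relative to the median of all genes. Of all genes, 0.681%, 1.44% and 5.0% were higher in knockout at 0 h, 2.5 h and 4 h, and 0.852%, 2.75% and 3.51% lower.

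Slc7a11, the cystine transporter that feeds glutathione synthesis, read 50, 270 and 719 in wild type, against 65, 132 and 120 in knockout. Its ratio to the wild type 0 h array, which is under the floor, depends on the background, and at 4 h the knockout was 5.99-fold lower than wild type. Slc3a2, its partner chain in the membrane, went from 4363 to 8967 in wild type and from 2901 to 8201 in knockout by 4 h, 2.06-fold and 2.83-fold. Both genotypes thus shared the gain of the partner chain. Slc7a11 was also higher after hCG in knockout, 2.03-fold at 2.5 h and 1.85-fold at 4 h, from a 0 h value near the floor. At 4 h Slc7a11 was higher in wild type than in knockout.

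Ggct, gamma-glutamylcyclotransferase, which releases 5-oxoproline from gamma-glutamyl amino acids, had the largest difference between genotypes at 4 h among the genes of this list over the floor. It read 424, 2302 and 3868 in wild type, against 547, 503 and 368 in knockout. That is 9.12-fold above 0 h in wild type at 4 h, and 10.5-fold lower in knockout than in wild type. Oplah, 5-oxoprolinase, which works on the product of Ggct, ran the other way, with 483, 384 and 287 in wild type, against 572, 1071 and 1180 in knockout, and at 4 h was 4.11-fold higher in knockout.

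Lap3, a leucine aminopeptidase that can split cysteinylglycine, was higher after hCG in both genotypes, at 894, 2279 and 2169 in wild type, against 808, 1802 and 2322 in knockout. Cth, which makes cysteine from cystathionine, read 242, 408 and 461 in wild type, against 199, 248 and 207 in knockout, 2.23-fold lower in knockout at 4 h. Glutathione synthetase (Gss), which completes glutathione and is named here after its values were seen, read 235, 381 and 385 in wild type, against 191, 231 and 213 in knockout, below 2-fold in every comparison on the deposited scale.

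**Figure D3:**
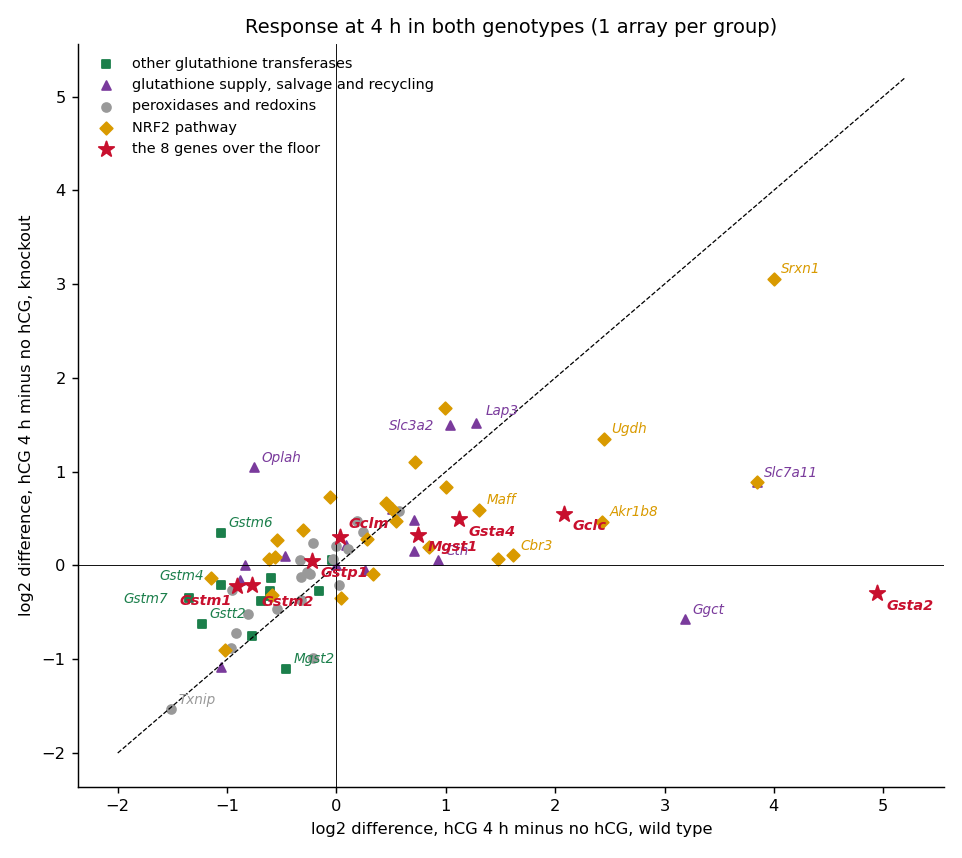
Log2 difference between 4 h and 0 h in wild type (horizontal) and in knockout (vertical), 1 array per group, for the 8 genes over the floor (red stars) and the genes of the 4 lists over the floor. The dashed line marks equal responses. Gsta2 (4.94 and -0.30), Ggct (3.19 and -0.57), Gclc (2.08 and 0.55) and Akr1b8 (2.43 and 0.47) lie far below it, and Srxn1 (4.00 and 3.06) nearer to it.

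Peroxidases and redoxins formed the third list. Of 28 listed, 25 had a probe set of their own and 21 exceeded the floor. Of these, 1 passed 2-fold in any of the 7 comparisons on the deposited scale, Txnip, the thioredoxin-interacting protein, which read 8714, 3669 and 3059 in wild type, against 11846, 5444 and 4091 in knockout. It was 2.85-fold lower at 4 h in wild type and 2.90-fold lower in knockout. With cyclic loess, or relative to the median of all genes, 1 gene of the list was also 2-fold higher in wild type at 4 h, and 2 rather than 1 were lower in knockout at 4 h. The medians in wild type were -0.23 and -0.24, close to those of all genes. In knockout they were -0.03 and -0.09, against -0.02 and 0.02 for all genes. In a single comparison, between 0.681% and 9.11% of all genes passed in a given direction. The share passing in any of the 7 was not counted, so nothing is read from the count of this list.

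The NRF2 pathway list held 30 genes, 27 with a probe set of their own and 25 over the floor. In wild type, 7 were 2-fold higher at 2.5 h and 8 at 4 h, with 0 and 2 lower (medians 0.32 and 0.51), against the same shares of all genes as for the supply list. The pair that was lower, named after its values were seen, was Ephx1, a microsomal epoxide hydrolase (930 to 419), and Abcc4, an export pump (289 to 143). With cyclic loess or relative to the median of all genes, 9 and 10 were higher and none lower. In knockout, 5 and 4 were higher and 0 lower (medians 0.28 and 0.37). Of all genes in knockout, 3.35% and 3.87% were higher and 3.57% and 4.56% lower, with medians of -0.02 and 0.02. Between genotypes 0 of 25 differed before hCG, and 7 were lower in knockout and 0 higher at both 2.5 h and 4 h, counts that were the same with cyclic loess and relative to the median of all genes. Of all genes, 2.75% and 3.51% were lower and 1.44% and 5.0% higher. The medians were -0.08 and -0.21, against 0.14 and 0.20 for all genes. The 7 were the same at both times, namely Srxn1, Slc7a11 (which stands in the supply list too), Ugdh, Akr1b8, Maff, Cbr3 and Bach1.

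Srxn1, sulfiredoxin, which repairs oxidized peroxiredoxins, read 95, 3385 and 1519 in wild type, against 70, 742 and 582 in knockout. It was thus higher after hCG in both genotypes, 35.6-fold and 10.6-fold at 2.5 h, and 4.56-fold lower in knockout than in wild type at that time. Both 0 h values of Srxn1 were near the floor, so its folds above 0 h depend on the background. Akr1b8, an aldo-keto reductase, read 432, 1054 and 2330 in wild type against 324, 438 and 448 in knockout. Cbr3, a carbonyl reductase, read 139, 493 and 425 against 116, 115 and 125.

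Ugdh, which makes UDP-glucuronate for glucuronidation and hyaluronan, read 1251, 4187 and 6835 in wild type, against 1151, 1808 and 2939 in knockout, 5.46-fold and 2.55-fold above 0 h at 4 h. Maff, a small MAF protein that pairs with NRF2, read 84, 370 and 208 against 57, 177 and 86. For Maff, 2.5 h was the highest time in both genotypes.

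The regulators themselves, named here after their values were seen, differed in pattern. Nfe2l2, which encodes NRF2, read 1731, 3226 and 3473 in wild type, against 1563, 3289 and 2787 in knockout, a log2 difference between genotypes of 0.03 at 2.5 h. Keap1, which marks NRF2 for degradation, stayed between 600 and 814. Bach1, a repressor that competes at the same elements, read 798, 1491 and 2221 in wild type, against 722, 733 and 755 in knockout, a log2 difference of -1.56 at 4 h. Nqo1, often used as a marker of NRF2 activity, was under the floor on all arrays, at 18 to 24.

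**Figure D4:**
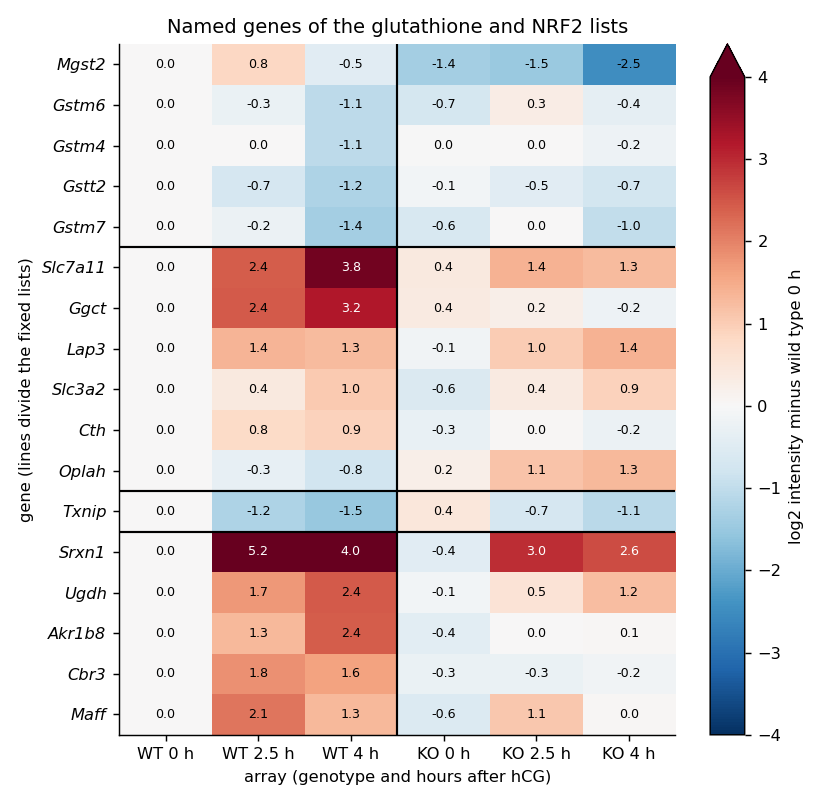
Log2 intensity relative to the wild type array at 0 h for the 17 list genes named by the rule of size, in rows, on the 6 arrays, in columns (WT wild type, KO knockout, hours after hCG). Colours end at 4 and the cells print the values. In the wild type columns Slc7a11, Ggct, Srxn1, Ugdh, Akr1b8 and Cbr3 darken after hCG, the transferases at the top are pale or blue at 4 h, and in knockout Ggct, Akr1b8 and Cbr3 stay near 0.

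Among 3071 genes over the floor that spanned at least 2-fold, those most like Gsta2 over the 6 arrays were Retn (resistin, Pearson r = 0.998), Nmu (neuromedin U, 0.996) and Vstm5 (0.995). Retn read 99, 463 and 625 in wild type, against 87, 88 and 71 in knockout. For Gclc the nearest were Sh3gl2 (0.996), Eaf1 (0.993) and Kcne4 (0.993), and for Gsta4 Zfp52 (0.997), Wnt11 (0.993) and Arf6 (0.990). Nmu and Vstm5 were under the floor on the 4 arrays where Gsta2 was low. These correlations rest on 6 arrays that were scaled together and are a description only. None of the 9 genes appeared among the nearest of another, and the other 6 were not compared because they spanned less than 2-fold or lay under the floor.

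Of the marker lists, 2 had their highest sums on the wild type arrays after hCG, as Gsta2 and Gclc did. The endothelial sum was 1.70-fold and 1.42-fold above 0 h there. At 4 h most of that gain was Kdr, a receptor of vascular growth factor (205 to 457), while Cdh5 went from 111 to 120 and Cldn5 from 79 to 85. The red blood cell sum was 535 and 557 against 345 at 0 h, nearly all of it Alas2, a heme synthesis enzyme, with the globin Hba-a1 at 18 to 21. Their part in the values of Gsta2 and Gclc was not tested. The theca sum was highest in knockout after hCG through Cyp17a1 alone, and the oocyte sum was highest in knockout at 0 h.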

How the data were processed

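RNA of granulosa cells was hybridized to 6 Affymetrix arrays. Per the labels' protocols, total RNA came from a column kit, and 5 ug of it was made into biotinylated cRNA. The deposited values are intensities, 1 per probe set and array, made with RMA in the affy package per the submitters' processing notes (versions not given in the sources used here). These intensities, linear and all whole numbers, had array medians of 54 or 55, so rounding is coarse for dim probe sets, and the number of arrays limits the precision. RMA's quantile step hides any change in total RNA per cell.

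From these, log2 of each intensity was taken (Python 3.11.15, pandas 2.3.3). Probe sets were named by the platform annotation: 34958 of 45101 name 1 gene, 932 several and 9211 none. Of the 34958, 34754 had a RefSeq gene entry (GRCm38.p6) and 0 symbols changed. The brightest probe set naming a gene alone stands for it. The code that counts by the 2-fold rule was checked on simulated data with known changes and no noise. That check says nothing of false calls between single arrays. Alternatives were cyclic loess (limma 3.58.1, R 4.3.3), the mean of all probe sets, no floor or a floor of 128, 16 added before the log, and centring on the median of all genes. List genes named were at most 6 a list, the largest differences first, and for each gene spanning 2-fold the 3 most alike genes. Members and lists were chosen with earlier results of these data known. Protein sequences were not used here.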

Additional observations from a re-analysis of the deposited data

Results flagged for a closer look

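Of the 9 genes and the 17 list genes named by the rule of size, 4 had both wild type arrays after hCG on one side of 0 h and both knockout arrays on the other. Genes outside that set, Keap1 among them, showed this too and are not listed. None of these differences between genotypes was tested, since each point is 1 array. For Ggct the log2 differences from 0 h at 2.5 h and 4 h were 2.44 and 3.19 (wild type), against -0.12 and -0.57 (knockout). For Oplah they were -0.33 and -0.75 (wild type), against 0.90 and 1.04 (knockout). Gstm6 gave -0.27 and -1.05 (wild type), against 0.99 and 0.35 (knockout). Its intensities were low, at 143, 119 and 69 in wild type, against 88, 175 and 112 in knockout. These differences therefore depend in part on the background, and those of knockout on a 0 h value below that of wild type. Gstp1 gave -0.06 and -0.23 (wild type), against 0.19 and 0.05 (knockout). The Gstp1 values are small, and relative to the median of all genes the wild type value at 2.5 h was 0.16, and with cyclic loess the knockout value at 4 h was -0.04.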

How the results depend on the processing

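No paired analysis was possible because each group is a single array and the labels give no replicate numbers. For the 9 genes, 42 counts of 2-fold differences were recomputed under the 6 alternatives (7 comparisons each), and 39 stayed within 1.5 times the reported count. The count outside that range was knockout against wild type at 2.5 h, with 1 gene as reported and 2 with cyclic loess, with probe sets of a gene averaged, and after centring on the median of all genes, because Gclc then passed the 2-fold line. In wild type at 2.5 h the count went from 2 to 3 with cyclic loess and after centring, as Gsta4 passed. With cyclic loess, after centring and with 16 added, all 63 single log2 differences moved by less than 1.5-fold under each, and no 2-fold difference changed sign. The floor cannot move a single difference, and averaging cannot move a gene with 1 probe set of its own. Over all settings Gsta2 at 4 h lay between -5.54 and -5.13 for knockout against wild type and between 4.78 and 5.15 for wild type against 0 h. Gclc lay between -1.48 and -1.25, and between 2.07 and 2.29. Values under the floor, those of Gsta3 among them, are limited by background. The spread between animals is not known here.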
